A study of Mus musculus with 24 samples.

Results

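The CXC chemokines described here are 10 mouse genes, Cxcl1, Cxcl2, Cxcl3, Cxcl9, Cxcl10, Cxcl13, Cxcl14, Cxcl16, Pf4 and Ppbp. They were chosen by symbol, through their Ensembl identifiers, and all 10 were found among the 17301 genes of the deposited expression table. RNA was sequenced from 4 sorted myeloid populations of the colon, F4/80hiMHCIIhi macrophages, F4/80hiMHCIIlow macrophages, Ly6Chi MHCII- monocytes and Ly6Ghi neutrophils. Each was taken from the lamina propria (LP, the connective tissue under the gut epithelium) of C57/BL mice (C57BL/6J in the study's methods), labelled healthy, and from tumours that had grown in the colon of APC/Min mice (Apc Min/+), which are heterozygous for a truncating mutation of the tumour suppressor gene Apc and develop intestinal adenomas. There were 3 libraries in each of the 8 groups and 24 in all, and the study pooled the tissue of 13 to 15 mice for a library. Libraries are named below by the roman number that the labels give to their donor, taken here as a pool of mice. Male and female APC/Min mice received dextran sodium sulphate, which injures the colon epithelium and speeds tumour growth, and were killed at 3 to 4 months of age. The methods give this agent to the control mice too, at a lower concentration, although the labels call their LP healthy. Genotype and dose thus differ between tumour and LP as well. LP was treated with EDTA before collagenase and tumours were digested with collagenase and DNase for a shorter time, so that tissue and digestion cannot be told apart in any comparison of tumour with LP. In sorted bulk samples, fewer cells with a transcript and less transcript per cell cannot be told apart either.

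CXC chemokines are small secreted proteins that direct leukocyte migration by binding to receptors on the leukocyte surface. Cxcl1, Cxcl2, Cxcl3 and the processed product of Ppbp attract neutrophils through Cxcr2, and the first 3 are rapidly induced by the transcription factor NF-kappaB. Cxcl9 and Cxcl10 are induced by interferons and attract activated T and natural killer cells through Cxcr3. Cxcl13 attracts B cells through Cxcr5, and Cxcl16 is a membrane-anchored ligand of Cxcr6. Cxcl14 is made by many epithelia, and Pf4 and Ppbp are best known as products of platelets and megakaryocytes, although Pf4 is also transcribed in tissue macrophages.

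Of the 10 genes, 8 lie on chromosome 5 of GRCm38. Ppbp (90768518 to 90770063), Pf4 (90772435 to 90773383), Cxcl3 (90786103 to 90789600), Cxcl1 (90891241 to 90893115) and Cxcl2 (90903871 to 90905938) are on the plus strand, with 2371 bases between Ppbp and Pf4. Cxcl9 (92321347 to 92328079) and Cxcl10 (92346638 to 92348889) are neighbours on the minus strand, separated by 18558 bases, and Cxcl13 (95956951 to 95961068) is on the plus strand. Cxcl14 is on chromosome 13 (56288643 to 56296551) and Cxcl16 on chromosome 11 (70453983 to 70459984), both on the minus strand. All are annotated as protein coding.

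Promoter sequences are shown for the 4 genes whose promoters held the kappaB motif described below, because these genes took different directions in tumours. They come from the RefSeq table for GRCm38.p6, which held 9 of the 10 genes, and are written 5′ to 3′ on the strand of the gene. Positions are counted from the RefSeq start, which can differ from the gene start given above. The Cxcl2 window thus ends at 90903878, past the gene start of 90903871. Capitals mark the kappaB motif, GGG and TTCC with 3 bases of any kind between them, and in Cxcl10 also the interferon-stimulated response element (ISRE), GAAA repeated after 2 bases of any kind, both read on either strand. Windows from -110 to -21 are given for Cxcl1 (chr5:90891135-90891224), Cxcl2 (chr5:90903789-90903878) and Cxcl3 (chr5:90785991-90786080), all on the plus strand, and a window from -230 to -71 for Cxcl10 (chr5:92348960-92349119, minus strand):
Cxcl1: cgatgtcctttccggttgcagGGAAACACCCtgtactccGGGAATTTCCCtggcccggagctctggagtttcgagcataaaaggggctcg
Cxcl2: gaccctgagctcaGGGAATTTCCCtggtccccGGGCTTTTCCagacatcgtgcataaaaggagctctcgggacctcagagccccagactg
Cxcl3: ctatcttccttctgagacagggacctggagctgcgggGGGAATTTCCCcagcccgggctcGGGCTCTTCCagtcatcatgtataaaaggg
Cxcl10: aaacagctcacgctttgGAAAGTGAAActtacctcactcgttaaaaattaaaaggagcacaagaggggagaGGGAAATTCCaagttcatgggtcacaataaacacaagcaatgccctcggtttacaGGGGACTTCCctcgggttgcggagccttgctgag

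The kappaB letters were found in 4 of the 9 promoters, those of Cxcl1, Cxcl2, Cxcl3 and Cxcl10, against 5.56% of 32851 promoters of the same length. The same stretch, GGGAATTTCCC, stood in Cxcl1, Cxcl2 and Cxcl3, where the motif matched on both strands in overlapping positions, and each of the 3 held a second kappaB match close to it. The ISRE letters were found in Cxcl10 and Cxcl14, against 3.44% of all promoters, and the interferon-gamma motif GAS (TTC and GAA with 3 bases between them, the same on both strands) in Cxcl14 alone, against 8.3%. A match is a description of the letters and no site of binding.

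Between 12.8 and 41.7 M reads per library lay on genes. The deposited values use library sizes that the authors scaled between libraries. These sizes were 0.466 to 0.483 of the counted reads in tumour neutrophils and 0.630 to 0.682 in LP neutrophils, but 0.981 to 1.51 times them elsewhere. Neutrophil levels are therefore set higher than in a plain division by counted reads, under which the median gene differed between neutrophils and monocytes by -1.11 in LP and -1.52 in tumours on the log2 scale, against -0.24 and -0.36 in the deposited values. The defining markers followed the labels: a sum over 10 neutrophil genes was at least 14444 RPKM (reads per kilobase of transcript, scaled to library size) in neutrophils and at most 941 elsewhere, and a sum over 11 macrophage genes was at least 4447 in macrophages and at most 870 elsewhere. Summed markers of other cells moved with tissue as well. Beside the calls given here, 32.2% of all genes tested were called between tumour and LP in neutrophils, 19.5% in MHCIIhi and 23.3% in MHCIIlow macrophages. The summed level of 12 fibroblast genes was 9.05 to 69.0 RPKM in LP libraries and 0.687 to 2.53 in tumour libraries, and that of 12 epithelial genes was 214 to 416 in tumour neutrophils against 24.3 to 96.4 in LP neutrophils, with 3 of the 12 called higher. In tumour MHCIIlow macrophages 4 of the 10 neutrophil genes were called higher (sum 102 to 125 RPKM against at most 56.9 in LP), and monocyte genes were called lower in tumour MHCIIhi (5 of 7) and MHCIIlow macrophages (2 of 7; sum 13.4 to 24.7 RPKM against 127 to 453 in LP, the highest being library II). B and plasma cell genes summed to 372 to 1335 RPKM in LP and 14.3 to 35.3 in tumour neutrophils (3 of 6 tested were called lower), and to 88.0 to 98.8 and 13.7 to 20.5 in MHCIIhi macrophages (1 of 6 lower). Dendritic cell genes summed to 94.0 to 189 RPKM in LP and 2.95 to 21.0 in tumour neutrophils (4 of 6 lower), and to at least 56.2 and at most 16.0 in MHCIIhi macrophages (3 of 6 lower). In MHCIIlow macrophages they summed to 19.1 to 23.4 in LP and 4.56 to 6.94 in tumours. T and natural killer cell genes summed to 79.6 to 91.6 RPKM in LP and 48.8 to 58.1 in tumour MHCIIhi macrophages, and to 40.0 to 62.3 and 24.9 to 28.8 in MHCIIlow macrophages. Their sum was at most 5.65 in monocytes and neutrophils, and Cd8a of this list held 0 reads in every macrophage library. Whether T cells or the macrophages themselves held these transcripts was not tested. Endothelial genes summed to 18.1 to 23.7 in LP and 2.19 to 3.56 in tumour neutrophils, but to 2.26 to 11.2 in LP and 11.7 to 18.4 in tumour MHCIIlow macrophages. The higher sum did not lie in all 10 endothelial genes. In tumour MHCIIlow macrophages 5 of them held at most 3 reads in every library, with Tie1, Emcn and Cldn5 at 0, against 1 in LP MHCIIlow macrophages. The calls of 3 of 12 epithelial, 2 of 7 monocyte and 1 of 6 B and plasma cell genes were near or below the shares of all genes. The part of these cells in the chemokine levels was not tested. LP monocyte library III stood apart from the other 2 with an epithelial sum of 229 RPKM against 26.5 and 77.1.

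The 10 chemokines summed to 1875 RPKM on average in LP MHCIIhi macrophages, 2009.5 in LP MHCIIlow macrophages, 1845 in LP monocytes and 7464 in LP neutrophils. In tumours the same sums were 1581, 1711, 4691 and 23893 RPKM. The neutrophil sums hold the scaling given above, which set tumour neutrophils higher by more than LP neutrophils. In every tumour monocyte library the sum (3572 to 5755 RPKM) was above every LP monocyte library (1407 to 2608), and the neutrophil libraries were separated in the same way, while the macrophage libraries of both tissues overlapped. Cxcl2 made up 86.8% of the sum in LP neutrophils and 86.0% in tumour neutrophils, 63.6% and 64.7% in monocytes, and 29.4% to 39.6% in the 4 macrophage groups. Macrophages spread their CXC transcripts over more genes: Cxcl16 contributed 27.5% in tumour MHCIIhi macrophages, Pf4 31.4% in LP MHCIIlow macrophages and Cxcl1 14.3% to 18.0% in the macrophage groups.

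**Figure D1:**
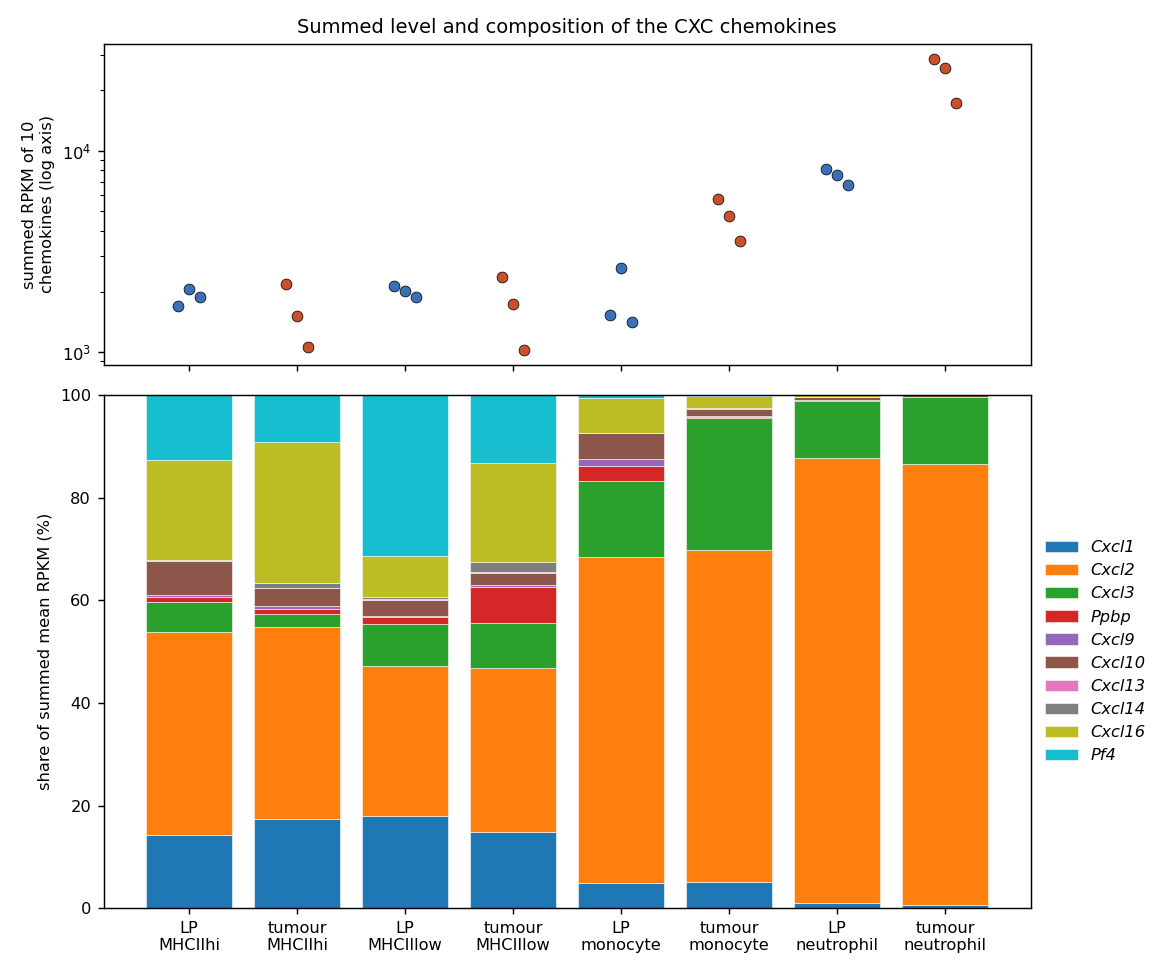
The upper panel shows the summed RPKM of the 10 CXC chemokines in each library on a log axis (blue, LP; red, tumour), and the lower panel the share of each gene in the summed group means, in percent. Cxcl2 takes 86.8% and 86.0% of the sum in LP and tumour neutrophils, and the macrophage bars are divided among Cxcl1, Cxcl2, Cxcl16 and Pf4.

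Against LP, the tumour groups differed in different members of the family, and no member moved the same way past the threshold in all 4 populations. In MHCIIhi macrophages 3 of 10 members were called (limma, Benjamini-Hochberg adjusted p under 0.05; 19.5% of all 12878 genes tested), Cxcl14 higher and Cxcl3 and Cxcl10 lower, and the members' median difference was -0.51 on the log2 scale against 0 for all genes. In MHCIIlow macrophages 4 were called (23.3% of all genes), Cxcl14, Cxcl16 and Cxcl9 higher and Pf4 lower, with a median of -0.27 against 0.06. In monocytes 3 were called (9.29% of all genes), Cxcl1, Cxcl2 and Cxcl3, all higher, with a median of 0.55 against 0. In neutrophils 6 were called (32.2% of all genes), Cxcl2, Cxcl3 and Cxcl14 higher and Cxcl9, Cxcl16 and Ppbp lower, with a median of -0.11 against -0.12. These 4 comparisons share no libraries, but they share the differences in genotype, dextran sodium sulphate dose and tissue preparation. Donor numbers recur across them within a tissue, so that they may share mice as well.

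**Figure D2:**
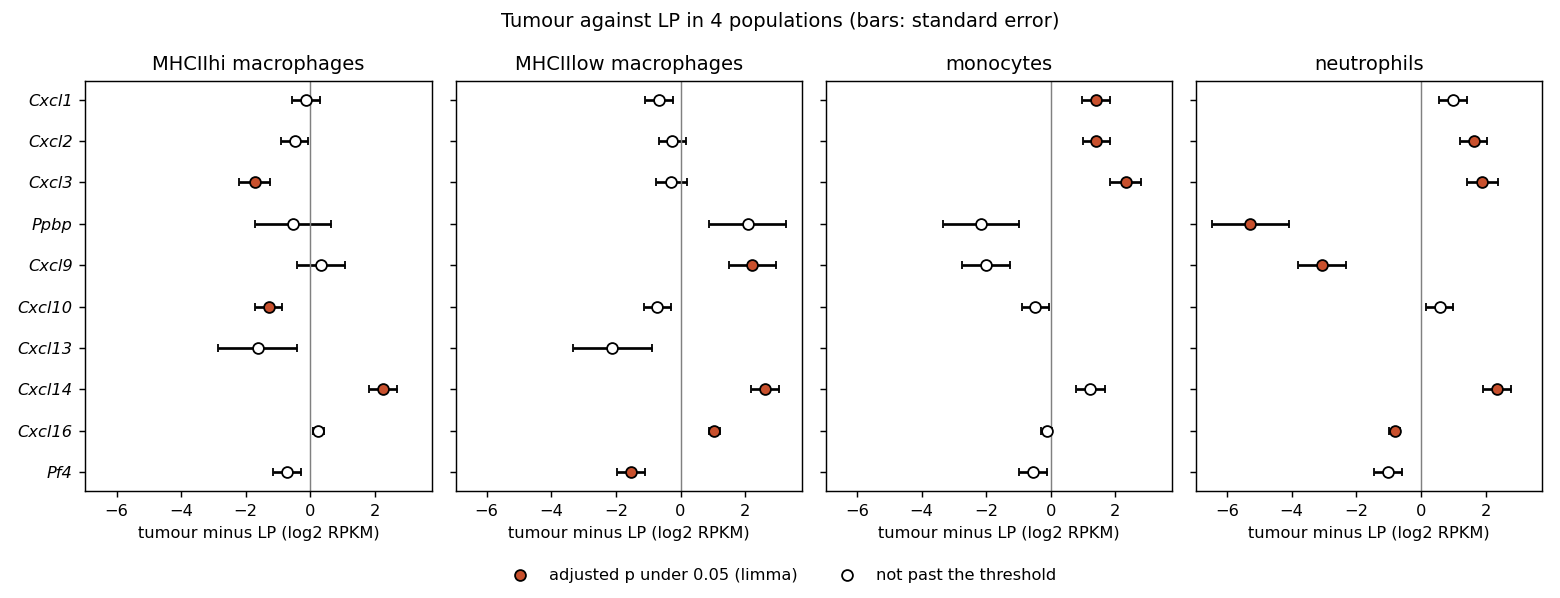
Difference in mean level between tumour and LP (log2 RPKM, x axis) for each chemokine in 4 populations, with its standard error. Filled points passed the adjusted p threshold, and the points of Cxcl13 are left out for monocytes and neutrophils, where no library held more than 3 reads. Cxcl14 is filled on the right in 3 panels, and Cxcl3 lies at -1.72 in MHCIIhi macrophages but at 2.32 in monocytes and 1.90 in neutrophils.

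The differences between populations were tested too. MHCIIlow against MHCIIhi macrophages gave 3 of 10 members in LP (7.7% of all genes), Pf4 higher and Cxcl9 and Cxcl16 lower, and 1 in tumours (1.13% of all genes), Cxcl3, which was higher. Macrophages of both kinds against monocytes gave 6 in LP (29.5% of all genes) and 7 in tumours (38.3%), and neutrophils against monocytes 7 in LP (54.5%) and 6 in tumours (58.1%). The tumour effect itself was compared between populations as an interaction term. It differed between macrophages and monocytes for 5 of 10 members (9.19% of all genes), Cxcl1, Cxcl2, Cxcl3, Cxcl9 and Cxcl16. Between MHCIIlow and MHCIIhi macrophages it differed for 0 of 10 in limma (1.46% of all genes), although 2 members, Cxcl3 and Cxcl16, had an unadjusted p under 0.05 and 1, Cxcl16, was called with voom. Between neutrophils and monocytes it differed for 0 of 10 in limma (9.11% of all genes) and with voom, and 1 member, Cxcl16, had an unadjusted p under 0.05.

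**Figure D3:**
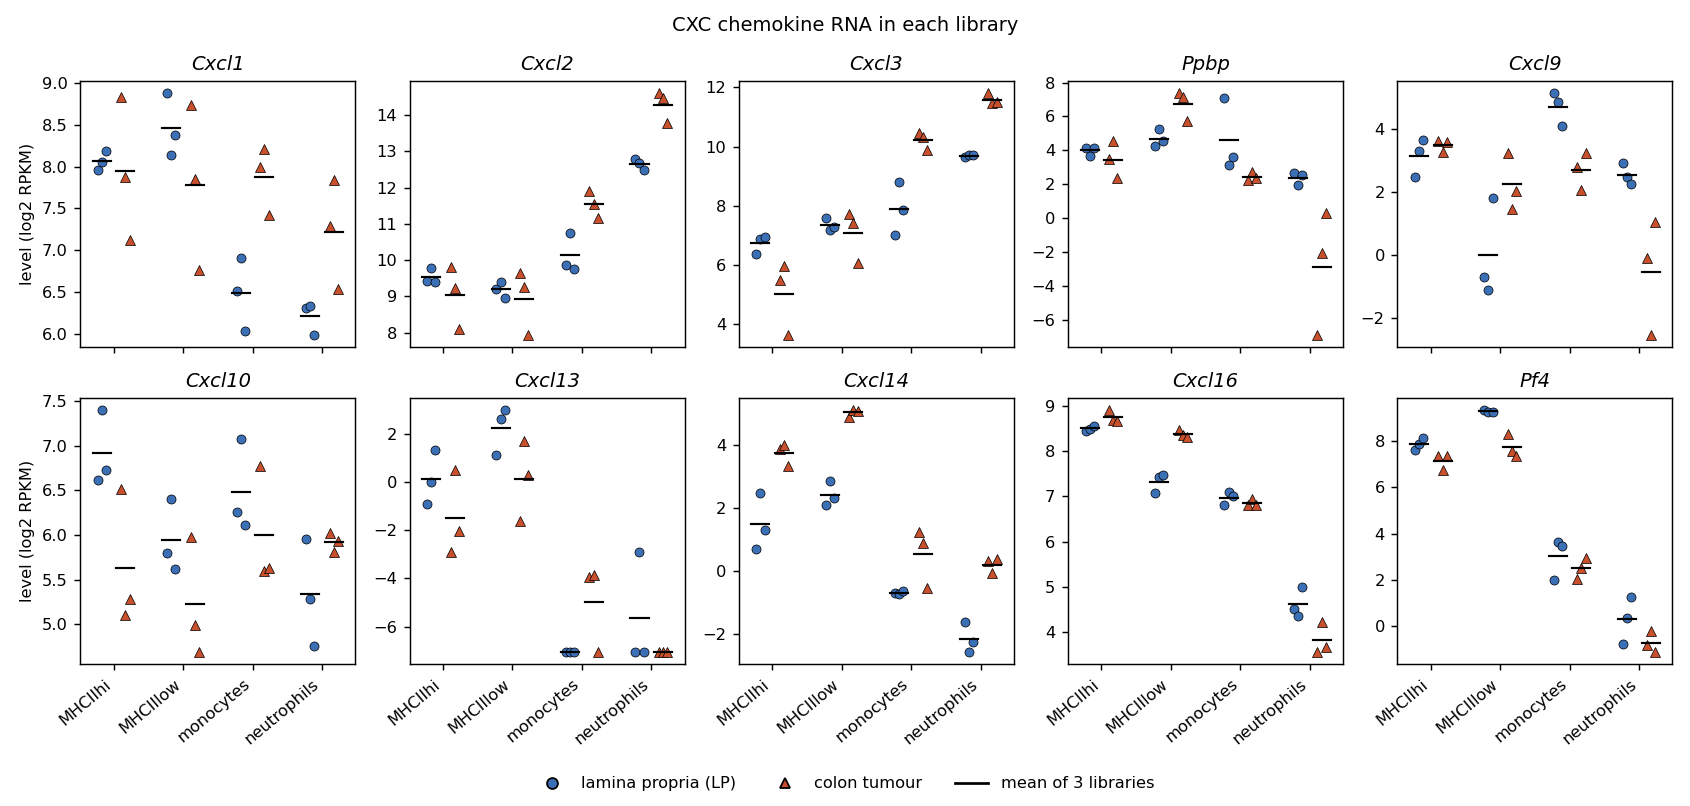
Level of each chemokine (log2 RPKM, y axis, a separate range for each gene) in 3 libraries per group, with the group mean as a bar. Cxcl2 is highest in neutrophils, Pf4 and Cxcl16 are lowest there, and the lowest Cxcl13 points, at -7.05, stand for 0 reads.

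The neutrophil attractants Cxcl1, Cxcl2 and Cxcl3 were higher in tumour than in LP monocytes and, for Cxcl2 and Cxcl3, in tumour than in LP neutrophils, while none of the 3 was called higher in tumour macrophages. Cxcl2 was at 9.87, 10.74 and 9.77 log2 RPKM in LP monocytes III, IV and V and at 11.91, 11.54 and 11.15 in tumour monocytes I, II and V. Every tumour monocyte library was above every LP monocyte library, with a difference of 1.41 ± 0.41 (SE, adjusted p = 0.037; 0.0791 under quantile normalization), that is, 2.65-fold. In neutrophils Cxcl2 was at 12.80, 12.68 and 12.49 in LP and at 14.60, 14.47 and 13.78 in tumours, the highest levels of any member in any group. Here too the groups were apart, by 1.63 ± 0.41 (adjusted p = 0.00518). As a share of counted reads, to which the authors' scaling is not applied, Cxcl2 took 0.718% to 1.23% in tumour neutrophils and 0.394% to 0.472% in LP neutrophils. In monocytes the share was 0.25% to 0.398% in tumours and 0.107% to 0.198% in LP. Such a share depends on the other genes of the library. With library sizes as counted reads, the median gene differed by -0.58 (log2) between tumour and LP neutrophils. The Cxcl2 difference in neutrophils was 1.16 (adjusted p = 0.0166) with these sizes. It did not pass under quantile normalization (0.32, adjusted p = 0.56), which gives all libraries the same distribution of values.

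Cxcl3 showed the steepest contrast among these 3 genes. It was at 7.03, 8.82 and 7.86 log2 RPKM in LP monocytes and at 10.46, 10.33 and 9.88 in tumour monocytes, a difference of 2.32 ± 0.48 (4.98-fold, adjusted p = 0.00413) that passed without any 1 library. In neutrophils it was at 9.64, 9.71 and 9.72 in LP and at 11.81, 11.47 and 11.50 in tumours, a difference of 1.90 ± 0.48 (adjusted p = 0.00506; 0.0783 under quantile normalization). No library of either pair of groups overlapped the other tissue. In MHCIIhi macrophages the order was the opposite. Cxcl3 was at 6.39, 6.89 and 6.96 in LP and at 5.49, 5.96 and 3.64 in tumours I, V and VII, again without overlap, and was 3.29-fold lower in tumours (difference -1.72 ± 0.48, adjusted p = 0.0151). This call was lost without LP library IV (adjusted p = 0.0521), LP library V (0.0569) or tumour library VII (0.119, with a difference of -1.02), and with only the 6 libraries compared in the fit (0.113). Genes of monocytes, which had more Cxcl3, were also lower in these tumour libraries, with a sum over the 7 monocyte markers of 13.2 to 18.2 RPKM against 59.1 to 66.8 in LP, and their part in the Cxcl3 level was not tested. In MHCIIlow macrophages it was at 7.59, 7.18 and 7.29 in LP and at 7.72, 7.41 and 6.09 in tumours, which overlapped (difference -0.28 ± 0.48, adjusted p = 0.745).

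Cxcl1 was less variable between groups than its neighbours. Its levels were 6.51, 6.91 and 6.04 log2 RPKM in LP monocytes and 8.00, 8.21 and 7.42 in tumour monocytes, without overlap (difference 1.39 ± 0.43, adjusted p = 0.0479). In neutrophils the LP libraries were at 6.32, 6.34 and 5.99 and the tumour libraries at 7.29, 7.83 and 6.53, also without overlap, but the difference of 1.00 ± 0.43 did not pass (adjusted p = 0.0833; 0.0335 with libraries centred on their median and 0.0354 without tumour library V). In macrophages Cxcl1 was at 7.95 to 8.88 in the 6 LP libraries and at 6.77 to 8.83 in the 6 tumour libraries. These ranges overlapped, and the adjusted p was 0.9 in MHCIIhi and 0.289 in MHCIIlow macrophages. The monocyte calls of Cxcl1 and Cxcl2 were lost in 7 and 6 alternatives: without LP library III the adjusted p was 0.109 for Cxcl1 and 0.125 for Cxcl2, without LP library V 0.181 and 0.139, without tumour library I 0.132 and 0.144, and without tumour library II 0.161 and 0.0886. With only the monocyte libraries in the fit it was 0.0519 and 0.0822. For Cxcl1 it was also 0.0525 without the filter on low genes and 0.0526 with library sizes as counted reads, and for Cxcl2 0.0791 under quantile normalization.

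The tumour effect on these 3 genes was smaller in macrophages, taken as the mean of both subsets, than in monocytes. The difference of the effects was -3.32 ± 0.59 for Cxcl3 (adjusted p = 0.000996), -1.79 ± 0.53 for Cxcl1 (0.0373) and -1.78 ± 0.51 for Cxcl2 (0.031). Tumour macrophages came from pools I, V and VII and tumour monocytes from I, II and V, and the pool was not used as a fixed block here. For Cxcl3 the difference of the effects passed under every alternative and without any 1 library. For Cxcl1 and Cxcl2 it did not pass without LP monocyte library III (0.073 and 0.0853) or V (0.114 and 0.0944), or without tumour monocyte library I (0.0879 and 0.0972) or II (0.103 and 0.0651), nor for both without LP MHCIIhi library IV (0.0535 and 0.0531). The Cxcl2 call was lost as well under quantile normalization (-1.20, adjusted p = 0.071). The Cxcl1 call was lost as well without LP MHCIIhi library V (0.058), LP MHCIIlow library II (0.0584), tumour MHCIIhi library V (0.0535) or VII (0.0563), or tumour MHCIIlow library V (0.0508).

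In tumour macrophages the level of these genes differed between pools, with 1 library per pool in each subset and no test of the pool. In both subsets pool I was the highest and pool VII the lowest for Cxcl1 and Cxcl2: Cxcl1 was at 8.83 and 7.12 log2 RPKM in MHCIIhi libraries I and VII and at 8.73 and 6.77 in MHCIIlow libraries I and VII, and Cxcl2 at 9.81 and 8.10 and at 9.63 and 7.93. The spread between pools of 1 group was thus larger than the difference between the 2 subsets. Pool VII was also the lowest for Cxcl3 in both subsets, but in MHCIIhi macrophages pool V (5.96) was above pool I (5.49). Tumour MHCIIlow macrophages had more Cxcl3 than tumour MHCIIhi macrophages in all 3 pools, by 2.04 ± 0.48 on average (adjusted p = 0.0425), although the range of MHCIIlow (6.09 to 7.72) lay only just above that of MHCIIhi (3.64 to 5.96). That call was lost without library I (0.06) or VII (0.201, with a difference of 1.35) of MHCIIhi, without library I (0.137) or V (0.163) of MHCIIlow, and with only the 6 libraries in the fit (0.404).

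Within a library, the balance among the 3 genes does not depend on any scaling between libraries. Cxcl1 minus Cxcl2 was -1.46 ± 0.26 (SD, n = 3) on the log2 RPKM scale in LP MHCIIhi macrophages, -0.73 ± 0.48 in LP MHCIIlow macrophages, -3.64 ± 0.25 in LP monocytes and -6.44 ± 0.09 in LP neutrophils. In tumours it was -1.10 ± 0.22, -1.16 ± 0.25, -3.66 ± 0.30 and -7.07 ± 0.38. Cxcl1 and Cxcl2 were thus nearest to equal in macrophages and farthest apart in neutrophils, and monocytes stood between them without overlapping either in both tissues. In neutrophils the highest tumour library (-6.63) was below the lowest LP library (-6.51). Cxcl3 minus Cxcl2 was more even, between -4.02 ± 0.65 in tumour MHCIIhi macrophages and -1.31 ± 0.13 in tumour monocytes. The lowest tumour monocyte library (-1.46) was above the highest LP monocyte library (-1.91), and the highest tumour MHCIIhi library (-3.27) was below the lowest LP MHCIIhi library (-3.03).

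Between populations, neutrophils had more Cxcl2 than monocytes in LP (2.53 ± 0.41, adjusted p = 3.51e-05) and in tumours (2.75 ± 0.41, adjusted p = 1.13e-05), and this held with library sizes taken as counted reads (1.71 and 1.62). Cxcl3 was higher in neutrophils by 1.79 ± 0.48 in LP (adjusted p = 0.00395) and by 1.37 ± 0.48 in tumours (0.0199), but these rested on the scaling: with counted reads the differences were 0.96 (0.0646) and 0.24 (0.66), and under quantile normalization 0.55 (0.366) and, reversed, -0.43 (0.486). The tumour call was also lost without tumour monocyte library V (0.0719) or tumour neutrophil library I (0.0588). Cxcl1 did not follow its neighbours: it was higher in LP macrophages than in LP monocytes by 1.78 ± 0.37 (3.43-fold, adjusted p = 0.00117). In tumours the 2 cell types differed by -0.01 ± 0.37 (adjusted p = 0.993; 0.00885 with the donor pool as a fixed block, where the difference was 0.68). The pools were not the same. In those with both cell types Cxcl1 was higher in macrophages, at 8.83 and 8.73 against 8.00 in pool I and 7.88 and 7.85 against 7.42 in pool V. Pool VII (7.12 and 6.77) had macrophage libraries without monocytes, and pool II (8.21) a monocyte library without macrophages. Between neutrophils and monocytes in tumours Cxcl1 differed by -0.66 ± 0.43 (adjusted p = 0.201; 0.005 with the donor pool as a fixed block). Tumour macrophages had less Cxcl3 and Cxcl2 than tumour monocytes, by -4.17 ± 0.42 (adjusted p = 1.11e-07) and -2.54 ± 0.36 (1e-05). In LP the same differences were -0.85 ± 0.42 (0.137) and -0.77 ± 0.36 (0.119), with 0.0477 and 0.0272 with the donor pool as a fixed block.

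Other inducible genes moved beside them. Of 21 genes of NF-kappaB feedback and inflammation, 15 were higher and 1 lower in tumour neutrophils (median 1.28 against -0.12 for all genes). In tumour monocytes 8 were higher and 0 lower (0.38 against 0), in tumour MHCIIhi macrophages 4 higher and 6 lower, and in tumour MHCIIlow macrophages 5 higher and 8 lower. Of all genes tested, 32.2%, 9.29%, 19.5% and 23.3% were called in these 4 populations. Il1b, the gene of interleukin 1 beta, was higher by 1.55 in tumour neutrophils, 1.12 in tumour monocytes and 2.19 in tumour MHCIIlow macrophages, where Cxcl1, Cxcl2 and Cxcl3 did not pass. Of 26 immediate-early and stress genes that tissue digestion is known to induce, 14 were higher and 0 lower in tumour neutrophils (32.2% of all genes called). The counts were 9 and 0 in monocytes (9.29%), 8 and 3 in MHCIIhi (19.5%) and 2 and 7 in MHCIIlow macrophages (23.3%). The part of digestion, and of the epithelial transcripts that were higher in tumour monocytes (151 to 402 RPKM summed, against 26.5 to 229 in LP) and neutrophils, in the levels of the 3 chemokines was not tested. The 7 monocyte markers summed to 897 to 1318 RPKM in the LP and 2804 to 3534 in the tumour libraries of this population, with 0 of 7 called, and this difference too was not tested against the chemokines. Neutrophil markers summed to 375 to 824 RPKM in its LP and 597 to 941 in its tumour libraries, with 0 of 10 called. Other sums were lower in its tumour libraries without overlap: B and plasma cell genes at 199 to 276 RPKM against 527 to 945 in LP (3 of 6 tested called lower), dendritic cell genes at 10.2 to 30.7 against 38.1 to 44.7 (0 of 6) and endothelial genes at 4.19 to 12.5 against 13.6 to 24.3 (2 of 4). The part of these cells and of neutrophils in the monocyte levels was not tested. Cxcl2 and Cxcl3 share 5.78% and 4.21% of their read-length stretches with each other or other genes, so that a small part of their reads could not be assigned uniquely.

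Ppbp, whose product is cut into a further ligand of Cxcr2, was highest in tumour MHCIIlow macrophages and nearly absent from tumour neutrophils. It was at 7.38, 7.14 and 5.75 log2 RPKM in tumour MHCIIlow libraries I, V and VII and at 4.23, 5.23 and 4.54 in LP MHCIIlow libraries. Every tumour library was above every LP library, but the difference of 2.09 ± 1.19 did not pass (adjusted p = 0.23). With only these 6 libraries in the fit the adjusted p was 0.0456, on the log2(RPKM + 1) scale 0.0253 and with voom on the recovered reads 0.0104. Tumour MHCIIhi macrophages were at 3.47, 4.54 and 2.35, all below tumour MHCIIlow macrophages, by 3.30 ± 1.19 (adjusted p = 0.221, 0.0207 on the log2(RPKM + 1) scale and 0.0239 with voom). LP MHCIIhi macrophages were at 4.16, 3.64 and 4.16.

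In neutrophils Ppbp was at 2.66, 1.95 and 2.51 log2 RPKM in LP, from 163, 56 and 132 reads. In tumour neutrophils I, II and V there were 0, 2 and 10 reads, the last at 0.28 log2 RPKM. The groups were apart and the test passed (difference -5.29 ± 1.19, adjusted p = 0.00201), but its size rested on the library without reads: it was -3.28 without that library, -6.88 without tumour library V and -2.15 on the log2(RPKM + 1) scale. The call was lost with voom (0.254) and with only the 6 libraries in the fit (0.115). The sum of 10 platelet and megakaryocyte markers was lower too, at 26.5 to 27.6 RPKM in LP and 11.3 to 19.7 in tumour neutrophils, with 0 of the 4 tested called, and its part in the Ppbp difference was not tested. Monocytes were at 7.09, 3.10 and 3.58 in LP III, IV and V and at 2.25, 2.70 and 2.34 in tumours. LP library III thus held 3689 reads of Ppbp against 408 and 471, and it was also the library with the high epithelial sum and with a high level of Cxcl5, another chemokine of neutrophils, 6.73 against 0.84 and 2.20. The difference between tumour and LP monocytes, -2.16 ± 1.19 (adjusted p = 0.303), was -0.91 without it. In LP Ppbp was not called between neutrophils and monocytes (-2.22 ± 1.19, adjusted p = 0.122; 0.0261 with the donor pool as a fixed block), and the difference was -0.97 without LP monocyte library III (0.531) and -2.96 without LP monocyte library IV (0.0673). In tumours it was lower in neutrophils (-5.34 ± 1.19, adjusted p = 0.000708; 0.162 with voom and 0.066 with only these libraries), at -3.33 without tumour neutrophil library I and -6.94 without library V. The mean level of Ppbp in tumours was 6.75 log2 RPKM in MHCIIlow macrophages, 3.45 in MHCIIhi macrophages and 2.43 in monocytes. Taken as the mean of both subsets, macrophages were above monocytes by 2.67 ± 1.03 (adjusted p = 0.0463). The MHCIIhi libraries overlapped the monocytes and the MHCIIlow libraries did not. That call was lost with the donor pool as a fixed block (0.104), without the filter on low genes (0.0517) and with libraries centred on their median (0.0578). It was also lost without any of 7 of the 9 libraries: the adjusted p was 0.0648 without tumour MHCIIhi library I, 0.09 without its library V, 0.0786 and 0.0763 without libraries I and V of MHCIIlow macrophages, and 0.121, 0.0888 and 0.111 without monocyte libraries I, II and V. It passed without library VII of either macrophage subset.

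The interferon-induced Cxcl9 and Cxcl10 behaved differently from each other. Cxcl9 was at 5.12, 4.85 and 4.08 log2 RPKM in LP monocytes, the highest group, and at 2.78, 2.05 and 3.22 in tumour monocytes. All 3 tumour libraries were below every LP library, but the 3.99-fold difference did not pass (adjusted p = 0.101; it passed in 4 alternatives, with voom at 0.00181). In neutrophils it was at 2.92, 2.46 and 2.24 in LP and at -0.09, -2.54 and 1.05 in tumours, from 34, 4 and 46 reads. The groups were apart, and the difference was -3.07 ± 0.74 (8.37-fold lower in tumours, adjusted p = 0.00346; 0.0596 with voom and 0.0849 with only these libraries). It was -2.06 without tumour library II, which held 4 reads, and -3.85 without tumour library V.

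In MHCIIlow macrophages Cxcl9 was higher in tumours. LP MHCIIlow libraries II, III and IV were at -0.70, -1.10 and 1.81 log2 RPKM and tumour MHCIIlow libraries at 3.23, 1.46 and 2.01. Library V of the tumours lay below library IV of LP, so that the ranges overlapped, and the difference was 2.23 ± 0.74 (4.69-fold, adjusted p = 0.0335). The call was lost without LP library II (0.129) or III (0.156), without tumour library I (0.149) or VII (0.0617), with only these libraries in the fit (0.151) and with array weights (0.0687), and the difference was 3.13 without LP library IV. MHCIIhi macrophages were at 2.47, 3.29 and 3.65 in LP and at 3.59, 3.26 and 3.59 in tumours, which overlapped (adjusted p = 0.815). In LP the MHCIIlow subset was thus below the MHCIIhi subset, by -3.13 ± 0.74 (8.78-fold, adjusted p = 0.012). This call was lost with the donor pool as a fixed block (0.0756) and with only these libraries in the fit (0.0951). It was also lost without MHCIIhi library V (0.0542) or MHCIIlow library II (0.0629) or III (0.0543), while the difference was -4.04 without MHCIIlow library IV. In tumours the same difference was -1.25 ± 0.74 (adjusted p = 0.613).

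The tumour effect on Cxcl9 was higher in macrophages than in monocytes by 3.28 ± 0.91 (adjusted p = 0.0254), which was lost without LP monocyte library III (0.073) or IV (0.0562) or tumour monocyte library I (0.0519) or II (0.0803). In LP Cxcl9 was lower in macrophages than in monocytes by -3.11 ± 0.64 (adjusted p = 0.000968), and in tumours the difference was 0.17 ± 0.64 (0.868). Neutrophils were below monocytes in LP by -2.14 ± 0.74 (0.0191, lost without LP monocyte library III at 0.0658 or IV at 0.0505 or LP neutrophil library V at 0.0553) and in tumours by -3.21 ± 0.74 (0.00096; -2.21 without tumour neutrophil library II).

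Cxcl10 was the member with the least difference between groups, with group means within 1.69 of each other on the log2 scale, and each of the 7 neighbouring pairs in the order of the group means overlapped. It was at 6.62, 7.40 and 6.72 log2 RPKM in LP MHCIIhi macrophages and at 6.52, 5.10 and 5.28 in tumour libraries I, V and VII. The tumour libraries were below LP, library I only by a small step, and the difference was -1.28 ± 0.42 (2.43-fold lower, adjusted p = 0.0348). The call was lost without LP library IV (0.152) or V (0.0594), without tumour library V (0.146) or VII (0.133) and with only these libraries in the fit (0.0973). MHCIIlow macrophages were at 5.80, 6.40 and 5.62 in LP and 5.98, 4.99 and 4.69 in tumours, monocytes at 6.26, 7.07 and 6.11 and at 6.77, 5.60 and 5.63, and neutrophils at 5.96, 5.29 and 4.76 and at 6.02, 5.81 and 5.93. Each of these 3 pairs overlapped, with adjusted p of 0.24, 0.567 and 0.304. In LP neutrophils were below LP monocytes by -1.15 ± 0.42 (adjusted p = 0.0252), with adjusted p above 0.05 in 6 of 18 alternatives (0.0509 to 0.126), among them those without LP monocyte library IV (0.126) and without LP neutrophil library IV (0.059) or V (0.122).

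The 2 interferon lists give the setting of these genes. Between tumour and LP, 19.5% of all genes tested were called in MHCIIhi and 23.3% in MHCIIlow macrophages, 9.29% in monocytes and 32.2% in neutrophils. Of 22 type I interferon response genes, 21 were lower in tumour MHCIIhi macrophages, where Cxcl10 was lower, 20 in tumour MHCIIlow macrophages, 11 in monocytes and 6 in neutrophils, and 0 were higher in any of the 4. Their median differences were -2.30, -2.44, -1.09 and -0.54, so that Cxcl10 differed by less than the list in both macrophage subsets. Of 21 interferon-gamma response genes, 8 were higher and 3 lower in tumour MHCIIlow macrophages, among the higher Ciita (1.81), the master regulator of MHC class II genes. In tumour monocytes 0 were higher and 9 lower, and in neutrophils 0 and 13, the populations in which Cxcl9 had lower values. In tumour MHCIIhi macrophages 3 were higher and 4 lower. Cxcl11, the third ligand of Cxcr3 in this group, was at most 2.32 log2 RPKM in any library and passed in none of the 4 populations. Up to 3.54% of the read-length stretches of Cxcl10 match Art3, whose exons overlap it.

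Cxcl13, the B cell attractant, exceeded 3 reads in macrophages alone among the 4 populations. LP MHCIIlow libraries II, III and IV held 104, 155 and 165 reads (1.10, 2.62 and 2.99 log2 RPKM) and LP MHCIIhi libraries III, IV and V 25, 56 and 92 reads (-0.93, 0.01 and 1.33). Tumour MHCIIlow libraries I, V and VII held 10, 164 and 40 reads (-1.60, 1.68 and 0.30) and tumour MHCIIhi libraries 4, 72 and 8 (-2.92, 0.48 and -2.04). In monocytes and neutrophils no library exceeded 2 reads, and 9 of the 12 held 0. Against a floor of 3 reads per library, LP MHCIIlow macrophages were at least 63.2-fold and LP MHCIIhi macrophages at least 14.7-fold higher than LP monocytes, and in tumours the bounds were 11.9-fold and 3.88-fold. Against neutrophils the bounds were 35.1-fold and 8.17-fold in LP, and only 3.92-fold and 1.28-fold in tumours. Macrophages against monocytes passed in LP (adjusted p = 6.85e-06) and in tumours (0.00327). Between tissues the libraries overlapped in both subsets, with differences of -2.11 ± 1.23 in MHCIIlow (adjusted p = 0.241, but 0.0104 on the log2(RPKM + 1) scale) and -1.63 ± 1.23 in MHCIIhi macrophages (0.414). Tumour pool V was the highest library in both subsets.

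Cxcl14 was higher in tumours than in LP in 3 of the 4 populations. In MHCIIlow macrophages it was at 2.10, 2.87 and 2.31 log2 RPKM in LP and at 4.91, 5.13 and 5.09 in tumours, a difference of 2.62 ± 0.44 (6.15-fold, adjusted p = 0.000178). In MHCIIhi macrophages it was at 0.69, 2.49 and 1.30 in LP and at 3.90, 4.01 and 3.34 in tumours, a difference of 2.26 ± 0.44 (4.78-fold, adjusted p = 0.000961). Tumour and LP libraries did not overlap in either subset, and both calls passed under every alternative and without any 1 library. Neutrophils were at -1.62, -2.57 and -2.26 in LP and at 0.31, -0.08 and 0.37 in tumours, apart by 2.35 ± 0.44 (adjusted p = 0.00042), but with only 4 to 28 reads per library, and the call was lost with voom on those reads (0.0937). Monocytes were at -0.70, -0.73 and -0.65 in LP and at 1.25, 0.90 and -0.55 in tumours I, II and V. Library V was just above LP, and the difference of 1.23 ± 0.44 did not pass (adjusted p = 0.089; 0.0138 without that library, 0.0471 under quantile normalization and 0.0463 with array weights).

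Among populations, Cxcl14 was higher in macrophages than in monocytes by 2.65 ± 0.38 in LP (adjusted p = 2.31e-05) and by 3.86 ± 0.38 in tumours (8.87e-08). Tumour MHCIIlow macrophages were above tumour MHCIIhi macrophages in all 3 pools, by 1.30 ± 0.44 (adjusted p = 0.184; 0.0277 on the log2(RPKM + 1) scale and 0.00344 with voom). In LP neutrophils were below LP monocytes by -1.46 ± 0.44 (0.00859), a call lost in 5 alternatives, among them the donor pool as a fixed block (0.0569). Of the 12 epithelial markers, 1 was called higher in tumour MHCIIhi macrophages (19.5% of all genes called), 1 in tumour MHCIIlow macrophages (23.3%) and 3 in tumour neutrophils (32.2%). In tumour neutrophils the epithelial sum was 214 to 416 RPKM against 24.3 to 96.4 in LP. In tumour MHCIIlow libraries the sum ran from 16.4 to 296 RPKM. The part of epithelial transcripts in the Cxcl14 level was not tested.

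Cxcl16 had SDs of 0.0594 to 0.359 log2 RPKM between the libraries of a group. It was at 7.08, 7.43 and 7.47 log2 RPKM in LP MHCIIlow macrophages and at 8.47, 8.35 and 8.31 in tumour MHCIIlow macrophages, apart by 1.05 ± 0.17 (2.07-fold, adjusted p = 0.000116). In MHCIIhi macrophages it was at 8.45, 8.50 and 8.57 in LP and at 8.92, 8.69 and 8.67 in tumours, also without overlap, but the difference of 0.25 ± 0.17 did not pass (adjusted p = 0.342; 0.00964 under quantile normalization). In LP the MHCIIlow subset was below the MHCIIhi subset by -1.18 ± 0.17 (2.26-fold, adjusted p = 0.00017). In tumours the libraries of the subsets still did not overlap, with a difference of -0.38 ± 0.17 (adjusted p = 0.384). The interaction of tissue and subset, 0.80 ± 0.24, did not pass (adjusted p = 0.115; 0.0232 with array weights and 0.0125 with voom).

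Monocytes were at 6.80, 7.11 and 7.01 log2 RPKM in LP and at 6.80, 6.95 and 6.80 in tumours, which overlapped (adjusted p = 0.757). Cxcl16 was higher in macrophages than in monocytes in both tissues, by 0.94 ± 0.15 in LP (adjusted p = 5.86e-05), with overlapping ranges, and by 1.71 ± 0.15 in tumours (1.17e-08). The tumour effect was higher in macrophages than in monocytes by 0.77 ± 0.21 (0.0215), with adjusted p between 0.0525 and 0.0606 without LP monocyte library IV (0.0606) or V (0.0535) or tumour monocyte library I (0.0562) or V (0.0525), and 0.0567 with libraries centred on their median. Neutrophils were the lowest population, at 4.51, 4.36 and 5.00 in LP and 3.56, 4.22 and 3.66 in tumours, and were lower in tumours (difference -0.81 ± 0.17, adjusted p = 0.00108; 0.0864 with only these libraries). They were below monocytes by -2.35 ± 0.17 in LP (7.63e-10) and by -3.04 ± 0.17 in tumours (1.69e-11). Of the read-length stretches of Cxcl16, 16.9% match Zmynd15, whose exons overlap it, so that its level may hold reads of both genes.

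Pf4, the gene of platelet factor 4, was a macrophage transcript in these samples. It was at 9.37, 9.25 and 9.28 log2 RPKM in LP MHCIIlow macrophages and at 8.31, 7.58 and 7.38 in tumour MHCIIlow libraries I, V and VII, 2.91-fold lower in tumours (difference -1.54 ± 0.43, adjusted p = 0.0124; 0.0593 without tumour library VII). MHCIIhi macrophages were at 7.63, 7.88 and 8.13 in LP and at 7.34, 6.75 and 7.36 in tumours. The libraries were apart in the same direction, but the difference of -0.73 ± 0.43 did not pass (adjusted p = 0.276; 0.0462 with array weights and 0.0101 with voom). The MHCIIlow subset had more Pf4 than the MHCIIhi subset in LP, by 1.42 ± 0.43 (2.68-fold, adjusted p = 0.0483), without overlap. This call was close to the threshold and was lost with the donor pool as a fixed block (0.0561), without any 1 of the 6 libraries (0.0771 to 0.164), without the filter on low values (0.056) and with libraries centred on their median (0.0561). In tumours the difference was 0.61 ± 0.43 (adjusted p = 0.724).

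Monocytes held far less Pf4, 2.01, 3.65 and 3.45 log2 RPKM in LP and 2.04, 2.52 and 2.92 in tumours, and neutrophils between -1.12 and 1.26, from 2 to 30 reads. Macrophages were above monocytes by 5.55 ± 0.37 in LP (47.0-fold, adjusted p = 1.13e-09) and by 4.96 ± 0.37 in tumours (31.1-fold, 2.06e-09), and neutrophils below monocytes by -2.75 ± 0.43 in LP (2.17e-05) and by -3.22 ± 0.43 in tumours (2.65e-06). The 10 of 14 platelet and megakaryocyte markers in the table summed to 0.755 to 2.48 RPKM in monocytes and, in neutrophils, to 26.5 to 27.6 in LP and 11.3 to 19.7 in tumours, and Itgb3 (at least 12.7) and F2rl2 (4.79 to 9.37) were the highest of them in LP neutrophils. Other markers did not share this order: Treml1 held 0 reads in the tumour neutrophil libraries and 14 to 21 in those of tumour MHCIIlow macrophages. Within macrophages the sum moved with tissue, at 2.71 to 3.91 in LP and 1.49 to 2.18 in tumours, and the highest marker in any macrophage library was the glycoprotein gene Gp9 at 1.78 RPKM. The part of platelets in the Pf4 levels was not tested.

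Across the 24 libraries, Cxcl2 and Cxcl3 varied together (Pearson r = 0.91) and opposite to Cxcl16 (-0.91 and -0.85) and Pf4 (-0.89 and -0.80). Cxcl1 did not vary with Cxcl2 (-0.34) or Cxcl3 (-0.26). These values describe mainly the 4 populations, whose libraries share a cell type and a scaling, and are given without a test. By the same measure the genes most like Cxcl3 were Csf3 (0.94), the gene of granulocyte colony-stimulating factor, Ier3 (0.93) and Olr1 (0.93), and those most like Cxcl2 were Capzb (0.98), Ptafr (0.98) and Ell (0.98). For Cxcl1 they were Il10 (0.83), Bex3 (0.81) and Smim24 (0.81), for Ppbp Ube2e3 (0.89), Ruvbl1 (0.89) and Gm47283 (0.88). Cxcl9 was most like Gbp4 (0.82), an interferon-induced GTPase, Calhm6 (0.81) and Tmf1 (0.80), and Cxcl10 most like Ifi206 (0.77), Dhx58 (0.74) and Fam43a (0.73). For Cxcl13 they were Cd59a (0.93), Fxyd2 (0.92) and Ccl8 (0.90), and for Cxcl14 Ntpcr (0.95), Mertk (0.92), a receptor for apoptotic cells, and Fam173a (0.92). Cxcl16 was most like Itm2c (0.99), Lgals3bp (0.98) and Hacd3 (0.98), and Pf4 most like Ms4a7 (0.97), a marker of tissue macrophages, Wdr91 (0.96) and Rab3il1 (0.96).

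The receptor genes Cxcr1, Cxcr2, Cxcr4 and Cxcr5 had their highest levels in neutrophils. Cxcr2 was at 10.43, 10.64 and 10.63 log2 RPKM in LP neutrophils and at 9.86, 10.14 and 10.08 in tumour neutrophils, and at most 2.29 in any other library. Cxcr1 (4.68 to 5.38) and Cxcr5 (3.53 to 4.04), the receptor of Cxcl13, were lower than Cxcr2 there. Of the 8 receptor genes, 0 were called in tumour MHCIIhi macrophages, 1 was higher in tumour MHCIIlow macrophages, 1 higher and 1 lower in monocytes, and 3 lower in neutrophils, where 19.5%, 23.3%, 9.29% and 32.2% of all genes tested were called. Cxcr4, which binds Cxcl12, was higher in tumour monocytes by 0.89 ± 0.23 (adjusted p = 0.0178) and in tumour MHCIIlow macrophages by 0.66 ± 0.23 (0.0454), and lower in tumour neutrophils (-0.97 ± 0.23, 0.00307). The decoy receptor gene Ackr1, called lower in tumour monocytes and neutrophils, held at most 74 reads in those libraries, and Cxcr6, called lower in tumour neutrophils, at most 78. Cxcr3, the receptor of Cxcl9 and Cxcl10, was at 0.77 to 2.89 in tumour macrophages and at most 2.16 in LP macrophages, and Cxcr6, the receptor of Cxcl16, reached 3.57 in 1 tumour MHCIIlow library (VII) and at most 2.13 elsewhere.

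**Figure D4:**
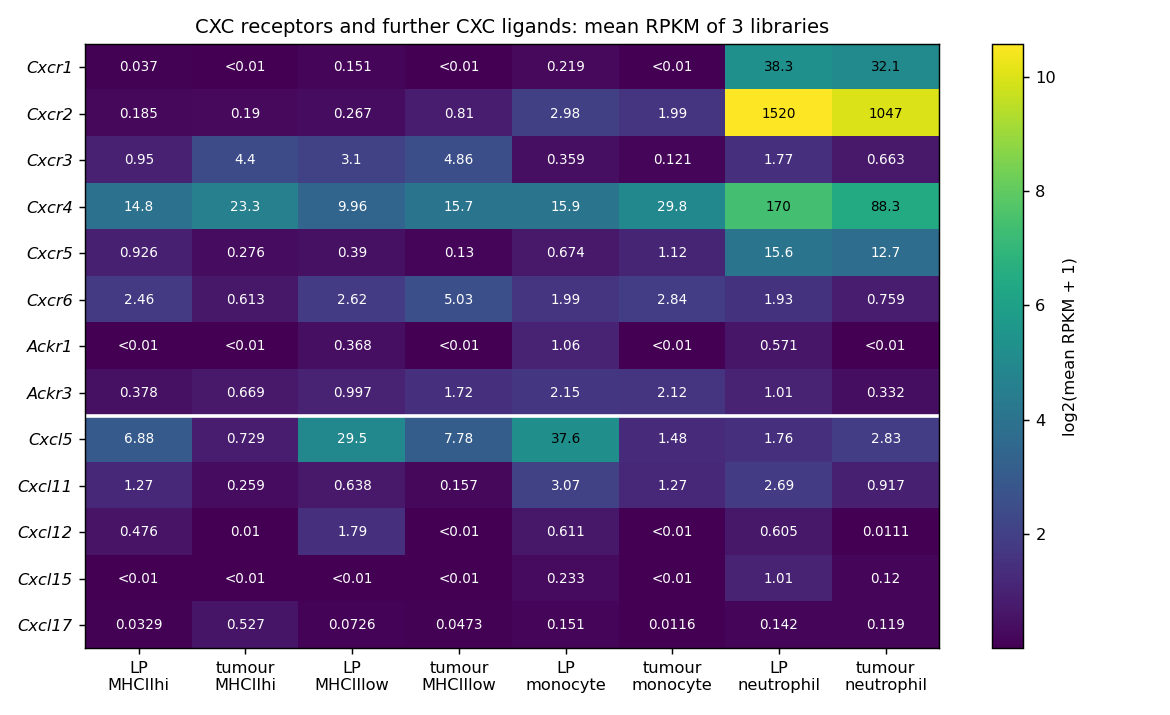
Mean RPKM of 3 libraries for 8 CXC receptors (above the white line) and 5 further CXC ligands in the 8 groups, with colour on a log2(mean RPKM + 1) scale. Cxcr2 stands out in both neutrophil columns, and Cxcl12 is near 0 in all 4 tumour columns.

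Of the 5 further CXC ligands in the table, Cxcl5, Cxcl11, Cxcl12, Cxcl15 and Cxcl17, the first 4 passed the filter on low values. Cxcl12, a product of stromal cells, was called lower in all 4 tumour populations, with 86 to 398 reads in each LP library and 0 to 6 in each tumour library, beside the fibroblast markers that were near 0 in tumours. Cxcl5 was lower in tumour MHCIIhi macrophages, at 0.31, -0.33 and -2.73 log2 RPKM against 2.54, 2.93 and 2.85 in LP (difference -3.69 ± 1.01, adjusted p = 0.0128). In MHCIIlow macrophages it was at 5.27, 4.66 and 4.63 in LP and at 3.57, 2.00 and 2.90 in tumours, below LP in every library, but did not pass (-2.03 ± 1.01, adjusted p = 0.163). Cxcl15 was called lower in tumour monocytes and neutrophils at no more than 86 reads per library, and was at 0 reads in all macrophage libraries.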

How the data were processed

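RNA from 24 libraries was analysed, 3 per group in 8 groups. The labels give the 3 libraries of a group different donor numbers and the study describes pooled mice, so that the replicates of a group are such pools (n = 3). In the main fit a p-value rests on the spread within groups taken over all 8 groups and drawn towards that of other genes. It is not the spread of the compared groups alone. The deposited values are log2 RPKM, which the authors made with STAR 2.3, featureCounts 1.5 and edgeR (submitters' processing notes) against GENCODE on GRCm38, leaving out genes with few reads. The modified SMART-seq libraries do not mark strand. The log2 values held a prior count of 0.25, and whole reads were recovered from 100% of 415224 values, the largest distance from a whole number being 0.0153 reads.

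All 10 members were kept among 12878 of 17301 genes with a mean of at least 1 RPKM in any group. limma 3.58.1 (R 4.3.3) was fitted with its trend option to the deposited values of all 8 groups, with Benjamini-Hochberg adjustment over all genes and a threshold of 0.05. Tables were written in python 3.11.15 (pandas 2.3.3, numpy 2.4.6) and figures drawn in matplotlib 3.10.9.

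Libraries with 1 donor number and 1 tissue were taken to share a pool, from the donor label alone, since no source used here states that a number marks the same mice in several populations. The deviations of such pairs from their group means correlated at -0.07 to 0.25 (29 pairs, median 0.02), and the donor pool was used as a block in an alternative. A value of at most 3 reads per library served as floor. The 10 chemokines were all named. Of receptors, further ligands and marker lists, counts are given for each direction, and genes are named where they bear on a member. The 3 genes most like each member are those with the highest Pearson r over 24 libraries. The members, lists and tests were chosen with earlier results of these data known. Protein sequences were not used here.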

Additional observations from a re-analysis of the deposited data

Results flagged for a closer look

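The tumour effect differed between macrophages and monocytes in limma's interaction term for 5 members, as given in the report: Cxcl3 (-3.32), Cxcl1 (-1.79), Cxcl2 (-1.78), Cxcl9 (3.28) and Cxcl16 (0.77 on the log2 scale, macrophages minus monocytes). For Cxcl9 the term joins values that were not called in monocytes with a call in MHCIIlow macrophages.

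For 3 members every tumour library was above every LP library in 1 population and below in another, as for 1550 of all 12878 genes tested (12%), and the difference between these pairs of populations was not tested. Ppbp differed by 2.09 in MHCIIlow macrophages, by -2.16 in monocytes and by -5.29 in neutrophils. Cxcl3 differed by 2.32 in monocytes and 1.90 in neutrophils, and by -1.72 in MHCIIhi macrophages. Cxcl16 differed by 0.25 in MHCIIhi and 1.05 in MHCIIlow macrophages, and by -0.81 in neutrophils.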

How the results depend on the processing

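The 51 member results that passed were computed again under 11 alternatives (other pseudocounts, filters and scalings, array weights, voom, the pool as a random or fixed replicate block, only the libraries compared), without each of 24 libraries, and, chosen after seeing the data, with library sizes as summed reads. Of them, 25 passed throughout, and 1 changed sign: Cxcl3 in neutrophils against monocytes in tumours was -0.43 under quantile normalization. The causes were not tested.

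The number of members called between tumour and LP went from 3 to 1 in MHCIIhi macrophages (only the libraries compared, 21.3% of all genes). It went from 3 to 5 in monocytes (array weights, 14.5%) and from 6 to 3 in neutrophils (only the libraries compared, 18.4%, and voom, 21.5%). The shares in the main fit were 19.5%, 9.29% and 32.2%. Between macrophage subsets in LP the number went from 3 to 1 with the fixed replicate block (4.78% of all genes, 7.7% in the main fit), where Cxcl9 and Pf4 were lost. In tumours it went from 1 to 3 (log2(RPKM + 1), 1.66%, and voom, 1.87%) or 0 (only the libraries compared, 0.031%), against 1.13%. For the interaction between subsets it went from 0 to 1 (array weights, 3.36%, and voom, 4.2%), against 1.46%. Between neutrophils and monocytes it went from 0 to 1 (summed reads, 13.7%), against 9.11%. The random block changed no call.

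With 1 library left out, the counts for tumour against LP ran from 1 to 3 in MHCIIhi macrophages, 2 to 4 in MHCIIlow macrophages, 1 to 4 in monocytes and 6 to 7 in neutrophils. At the lowest counts 14.5% to 14.7% of all genes were called in MHCIIhi macrophages, 18.8% in MHCIIlow macrophages and 5.97% to 6.42% in monocytes. With all libraries these shares were 19.5%, 23.3% and 9.29%. Between subsets the counts ran from 1 to 2 in LP (4.51% to 7.92% of all genes at a count of 1). In tumours they ran from 0 to 1 (0.241% to 1.39% of all genes at a count of 0). For macrophages against monocytes they ran from 6 to 7 in both tissues, and for neutrophils against monocytes from 5 to 7 in LP and 5 to 6 in tumours. For the interactions they ran from 0 to 0 between subsets, 1 to 5 for macrophages and 0 to 1 for neutrophils. At a count of 1, 6.99% of all genes were called for macrophages and 8.9% to 9.7% for neutrophils. Depth limits the differences in which a group held libraries of 10 reads or fewer (Cxcl13 and, in neutrophils, Cxcl9, Cxcl14, Pf4 and Ppbp).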
